A study of Mus musculus with 6 samples.

Results

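Transcripts of 10 genes of the unfolded protein response (UPR) were followed in cells sorted as peritoneal endothelial cells (ECs). The cells came from mice that received peritoneal dialysis (PD) fluid and from saline mice. The genes, Hspa5, Hsp90b1, Ddit3, Atf4, Atf6, Xbp1, Ern1, Eif2ak3, Herpud1 and Pdia4, were taken by symbol from the 22183 genes in the table of read counts. All 10 were found, and all 10 passed the filter on low counts. Ddit3 has a second row, with at most 2 counts in any mouse, and the row with the higher total was used. RNA came from 3 saline mice and 3 PD mice, 1 library per mouse. Both groups were WT, male young adults of the C57BL/6J strain according to the methods, and were injected intraperitoneally every day for 6 weeks, with saline or with glucose-based Dianeal PD fluid. The labels describe magnetic sorting on CD31, and the supplementary methods describe fluorescence sorting of CD31+ CD45- cells from digested mesentery. Gene positions below are those of GENCODE on GRCm38, matched by Ensembl identifier. Counts on genes ran from 21973426 to 26374292 per mouse.

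The UPR is the programme by which a cell matches the folding capacity of its endoplasmic reticulum (ER) to its load of secreted and membrane proteins. IRE1, the product of Ern1, splices the Xbp1 transcript into a form that encodes an active transcription factor, PERK, the product of Eif2ak3, phosphorylates eIF2 and so favours translation of Atf4, whose targets include CHOP (Ddit3), and ATF6 is cut in the Golgi to release a transcription factor for ER chaperones. ECs secrete matrix and clotting proteins and rely on this machinery. Splicing of Xbp1, phosphorylation of eIF2 and cleavage of ATF6 cannot be read from counts per gene, and the values below are amounts of transcript.

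The cell type was compared with its markers before any other result. Levels are counts per 1e6 reads (CPM), with libraries scaled by TMM, which sets them equal over most genes. The 12 endothelial markers were detected in every mouse, and their sum was 1123–1129 CPM in the saline group against 1753–1843 CPM in the PD group, with 11 of 12 higher. The marker not called was Pecam1, which encodes the sort marker CD31. It was the most abundant of the 12 and weighed most in the sum, with means of 468.9 CPM in the saline group and 513.5 CPM in the PD group. Transcripts of other cells were abundant as well. In both groups the leukocyte sum and the B cell sum, given below, were each above the endothelial sum. Sums of different lists do not give shares of cells. The UPR values below are therefore those of mixed libraries and not of ECs alone. Ptprc, which encodes CD45, went from 2373 ± 127 to 1473 ± 63.6 CPM (mean and SD of 3 mice per group). The supplement describes the sorted cells as CD45-, and lists the same dye (FITC) on the antibodies to CD31 and to CD45. The summed markers were 6401–6764 CPM in the saline group against 4999–5068 CPM in the PD group for leukocytes (4 of 5 lower and 1, Laptm5, higher), 5827–6104 and 2767–2803 CPM for B cells and 1332–1414 and 1112–1218 CPM for T cells, in the same order of groups. All 6 macrophage markers were higher, and their sum was 2270–2407 CPM in the saline group against 9224–9977 CPM in the PD group. The sum was 13.3–15.5 CPM in the saline group against 187–201 CPM in the PD group for neutrophils, 86.6–93.0 and 808–836 CPM for fibroblasts, 13.5–17.2 and 147–172 CPM for mesothelium and 269–292 and 394–439.9 CPM for mural cells, in the same order. Markers of cells specialised in secretion, which use the UPR heavily, were also measured. Pancreatic acinar markers summed to 2.89–6.73 CPM in the saline group against 7291–8206 CPM in the PD group, and plasma cell markers to 1298–1425 and 2094–2449 CPM, with 3 of 6 higher and 2 lower. Most of the plasma cell sum was Jchain, with means of 1161 CPM in the saline group and 2106 CPM in the PD group. The 2 that were lower were Mzb1 (122.1 and 79.6 CPM) and Irf4 (31.0 and 19.1 CPM). Immediate early genes, which respond to cell isolation among other stimuli, summed to 4115–4617 CPM in the saline group against 8024–8086 CPM in the PD group. The part of these differences in the results below was not tested, and in such bulk libraries fewer cells of a type and less RNA per cell cannot be told apart.

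**Figure D1:**
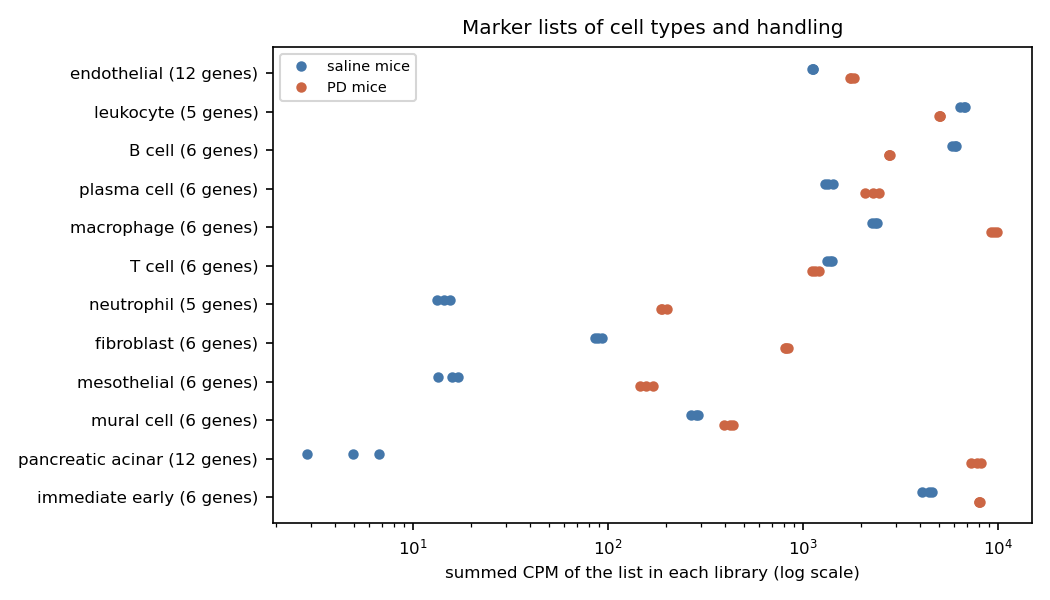
Summed CPM (x axis, log scale) of each marker list (y axis) in each library, with 1 point per mouse and colours for saline and PD fluid. The endothelial sum is at most 1129 in saline mice and at least 1753 in PD mice, and the acinar sum at most 6.73 and at least 7291.

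Of the 10 UPR genes, 5 were higher in PD mice (Hspa5, Hsp90b1, Xbp1, Ern1 and Herpud1), 1 was lower (Eif2ak3) and 4 did not pass the test (Ddit3, Atf4, Atf6 and Pdia4). The test was edgeR's quasi-likelihood test, with a threshold of 0.05 on p after Benjamini-Hochberg adjustment over 14005 genes. Among all of these genes 31.1% were called higher and 27.8% lower, so calls in either direction were common in these libraries. The log2 fold changes (PD over saline) of the 10 genes ran from -0.37 to 1.03 with a median of 0.12, against a median of 0.02 over all tested genes. In 5 of the 10 every PD mouse was above every saline mouse and in 2 (Eif2ak3 and Atf6) every PD mouse was below, where the shares of all tested genes were 34.0% and 31.6%. These directions depend on the scaling, as given further on: relative to endothelial markers the genes called higher here, other than Ern1, were lower.

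**Figure D2:**
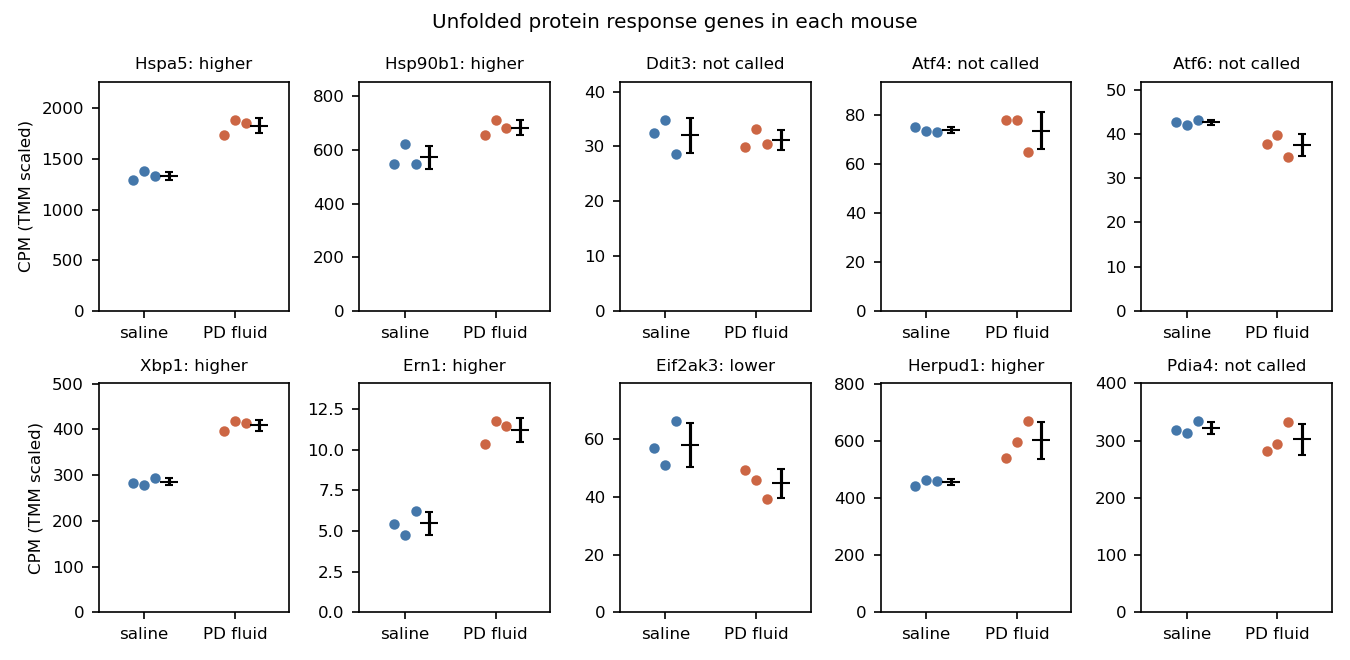
CPM of each UPR gene (y axes, from 0) in each mouse (points) of the saline and PD fluid groups, with the mean and SD of 3 mice beside them and the edgeR call above each panel. Hspa5 lies at 1294 to 1377 in saline mice and at 1741 to 1887 in PD mice, and the groups of Ddit3, Atf4 and Pdia4 overlap.

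Hspa5 (ENSMUSG00000026864, chromosome 2, 34771970 to 34777547) encodes BiP, the main Hsp70 chaperone of the ER, which also keeps the sensors inactive. It was at 1294, 1377 and 1327 CPM in saline mice 1 to 3 and at 1741, 1887 and 1857 CPM in PD mice 1 to 3. All PD mice were above all saline mice, 1.37-fold on average. The log2 fold change was 0.46 ± 0.06 (SE) and edgeR gave an adjusted p of 9.26e-05. Hsp90b1 (ENSMUSG00000020048, chromosome 10, 86690209 to 86705509) encodes GRP94, the Hsp90 of the ER, which folds integrins and Toll-like receptors. It was at 548, 623 and 549 CPM in the saline mice and at 655, 713 and 682 CPM in the PD mice. The groups stayed apart but came close, saline mouse 2 lying near PD mouse 1. On the log2 scale its change was 0.25 ± 0.07 (SE) and edgeR gave an adjusted p of 0.00845. Part of its exons (415 bases) lies opposite the pseudogene 1810014B01Rik, whose reads cannot be told apart without strand. On the same strand its exons share 84 bases with Gm15344 and 133 with the microRNA gene Gm25745.

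Pdia4 (ENSMUSG00000025823, chromosome 6, 47796141 to 47813430) encodes ERp72, a disulfide isomerase found in complexes with BiP and GRP94. It was at 319, 313 and 334 CPM in the saline mice and at 281, 293 and 333 CPM in the PD mice. PD mouse 3 lay within the saline range and the other two below it. The log2 fold change was -0.09 ± 0.07 (SE) and edgeR gave an adjusted p of 0.306, which did not pass. Herpud1 (ENSMUSG00000031770, chromosome 8, 94386438 to 94395377) encodes HERP, a membrane protein that helps to assemble the ubiquitin ligase of ER-associated degradation. It was at 444, 464 and 461 CPM in the saline mice and at 542, 597 and 670 CPM in the PD mice. The PD mice were more spread out than the saline mice, without overlap. Its change on the log2 scale was 0.40 ± 0.08 (SE) and edgeR gave an adjusted p of 0.00109.

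The promoters of these chaperone and degradation genes are shown because they differ in exact matches to the response elements of the pathway. Windows of 250 bases before to 50 after the start came from RefSeq (GRCm38.p6), which matched 9 of the 10 genes (not Atf6). Both strands were searched for the ER stress response element of NF-Y and ATF6 (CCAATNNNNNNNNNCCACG), its second form (ATTGGNCCACG), the UPR element (TGACGTGG) and the composite element of CHOP and ATF4 (TGATGNAA). Only exact matches to these letters were sought, so a variant with a mismatch would be missed. The first and second forms both hold a CCACG box and a CCAAT box, the latter reversed in the second. Capitals mark the ER stress response elements (first or second form) in Hspa5 (chr2:34771840-34772139, plus strand), Hsp90b1 (chr10:86705395-86705694, minus strand) and Herpud1 (chr8:94386179-94386478, plus strand), and the separate CCAAT and CCACG boxes in Pdia4 (chr6:47813463-47813762, minus strand), each 5′ to 3′ along the gene.
Hspa5: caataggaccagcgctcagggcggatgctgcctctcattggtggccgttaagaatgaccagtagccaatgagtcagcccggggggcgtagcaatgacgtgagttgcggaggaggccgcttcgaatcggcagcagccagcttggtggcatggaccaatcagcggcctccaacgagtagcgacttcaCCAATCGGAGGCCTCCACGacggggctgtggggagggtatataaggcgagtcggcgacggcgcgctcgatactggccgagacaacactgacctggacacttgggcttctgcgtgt
Hsp90b1: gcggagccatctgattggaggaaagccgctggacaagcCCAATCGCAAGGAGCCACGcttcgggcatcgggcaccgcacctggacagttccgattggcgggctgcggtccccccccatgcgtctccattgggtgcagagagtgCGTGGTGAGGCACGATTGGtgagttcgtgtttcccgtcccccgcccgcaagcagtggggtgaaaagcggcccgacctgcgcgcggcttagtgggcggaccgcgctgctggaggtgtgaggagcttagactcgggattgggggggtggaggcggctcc
Herpud1: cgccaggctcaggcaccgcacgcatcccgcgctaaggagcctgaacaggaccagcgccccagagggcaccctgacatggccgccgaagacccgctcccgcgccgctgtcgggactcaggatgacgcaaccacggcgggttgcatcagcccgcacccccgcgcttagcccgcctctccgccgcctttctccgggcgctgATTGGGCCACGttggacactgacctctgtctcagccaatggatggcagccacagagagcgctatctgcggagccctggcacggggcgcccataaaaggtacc
Pdia4: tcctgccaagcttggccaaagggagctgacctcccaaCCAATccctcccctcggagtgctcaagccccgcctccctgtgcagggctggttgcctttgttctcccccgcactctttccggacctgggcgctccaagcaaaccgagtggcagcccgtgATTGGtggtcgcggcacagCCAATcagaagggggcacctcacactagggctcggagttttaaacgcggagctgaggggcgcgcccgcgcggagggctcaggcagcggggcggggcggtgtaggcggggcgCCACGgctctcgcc
Counted from the start, Hspa5 holds the first form from -65 to -47, and Hsp90b1 holds it from -212 to -194 and, on the other strand, from -107 to -89. Herpud1 holds the second form from -52 to -42 and the composite element, in lower case above, from -112 to -105. None of the other 6 windows holds an exact match to any of the 4 elements, and none of the 9 holds the UPR element. Those 6 include Ern1 and Xbp1, which were called higher. Of 32851 promoters of this length, 0.119% hold the first form, 0.0365% the second, 0.676% the UPR element and 3.97% the composite. Among tested genes with the first form, 10 of 20 were higher and 2 lower (median log2 fold change 0.27, Hspa5 and Hsp90b1 included), and with the second 3 of 8 were higher and 2 lower (median -0.11, Herpud1 included). Over all tested genes the shares were 31.1% and 27.8% and the median 0.02. A match describes letters in the window and says nothing of whether a factor was bound.

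Both genes of the IRE1 branch were higher. Ern1 (ENSMUSG00000020715, chromosome 11, 106394650 to 106487852) was at 5.43, 4.75 and 6.21 CPM in the saline mice and at 10.3, 11.7 and 11.5 CPM in the PD mice. The groups were far apart and the ratio, 2.04-fold, was the highest of the 10 genes. The log2 fold change was 1.03 ± 0.15 (SE) and edgeR gave an adjusted p of 0.000169. Xbp1 (ENSMUSG00000020484, chromosome 11, 5520659 to 5525893), whose transcript IRE1 splices, was at 284, 279 and 295 CPM in the saline mice and at 395, 418 and 414 CPM in the PD mice. The mice of each group lay close together, 1.43-fold apart between groups. Its log2 fold change was 0.52 ± 0.06 (SE) and edgeR gave an adjusted p of 2.44e-05. Plasma cells and acinar cells depend on XBP1, and the part of their markers (values above) in these results was not tested. With acinar genes left out of the counts, which removes those genes and not the other RNA of such cells, the log2 fold change was 1.04 for Ern1 and 0.53 for Xbp1.

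Eif2ak3 (ENSMUSG00000031668, chromosome 6, 70844515 to 70905245) was the gene of the 10 that fell. It was at 57.1, 51.1 and 66.3 CPM in the saline mice and at 49.3, 45.8 and 39.4 CPM in the PD mice. The groups nearly met, between saline mouse 2 and PD mouse 1. On the log2 scale the change was -0.37 ± 0.11 (SE) and edgeR gave an adjusted p of 0.0137. The call depended on single mice. It was lost without saline mouse 3 (-0.27, edgeR adjusted p = 0.0546) and without PD mouse 3 (-0.29, edgeR adjusted p = 0.0593). In the other fits that omit a mouse the call held, and the change ran from -0.46 to -0.27 over all of them. Exons of Eif2ak3 share 485 bases with Gm43292 on the opposite strand. Atf6 (ENSMUSG00000026663, chromosome 1, 170704674 to 170867771) was at 42.6, 42.2 and 43.2 CPM in the saline mice and at 37.7, 39.8 and 34.8 CPM in the PD mice. All PD mice were below all saline mice, by less than the test requires. Its log2 fold change was -0.19 ± 0.08 (SE) and edgeR gave an adjusted p of 0.0662.

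Neither transcript downstream of PERK passed the test. Atf4 (ENSMUSG00000042406, chromosome 15, 80255184 to 80257541), a transcription factor controlled largely in translation, was at 75.3, 73.3 and 73.3 CPM in the saline mice and at 78.1, 78.0 and 64.9 CPM in the PD mice. The PD mice lay on both sides of the saline mice. The log2 fold change was -0.01 ± 0.08 (SE) and edgeR gave an adjusted p of 0.959, with -0.17 to 0.16 as the interval of 2 SE. Ddit3 (ENSMUSG00000025408, chromosome 10, 127290774 to 127296288) was at 32.5, 34.9 and 28.6 CPM in the saline mice and at 29.8, 33.3 and 30.4 CPM in the PD mice. The PD mice lay inside the saline range. Its log2 fold change was -0.04 ± 0.10 (SE) and edgeR gave an adjusted p of 0.76, with -0.23 to 0.16 as the interval of 2 SE. With 3 mice per group, changes of the sizes inside these intervals remain possible for these genes. Exons of Ddit3 share 68 bases with Mars on the opposite strand.

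Levels of different genes were compared per length, in the FPKM of the authors. The medians in saline mice were 524 for Hspa5, 235 for Herpud1, 195 for Hsp90b1, 156 for Xbp1, 133 for Pdia4, 43.4 for Atf4, 36.4 for Ddit3, 13.1 for Eif2ak3, 5.88 for Atf6 and 1.19 FPKM for Ern1, and no neighbours in this order overlapped. In PD mice the order was the same, from 711 FPKM for Hspa5 to 2.53 FPKM for Ern1. There the ranges of Hsp90b1 and Xbp1 overlapped, and so did those of Atf4 (lowest 36.9 FPKM) and Ddit3 (highest 38.0 FPKM). The sensor transcripts were the lowest of the 10 in both groups and that of BiP the highest.

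The ratio of 2 genes within a library does not depend on how libraries are scaled. The log2 ratio of Xbp1 counts to Hspa5 counts lay between -2.30 and -2.17 in saline mice and between -2.17 and -2.14 in PD mice. For Herpud1 it lay between -1.57 and -1.53 and between -1.69 and -1.47, respectively. These were the genes whose ratio to Hspa5 overlapped between the groups. For Xbp1 the overlap was narrow, PD mouse 2 (-2.1749) lying just below saline mouse 3 (-2.1721). The mean difference was 0.06 for Xbp1 and -0.06 for Herpud1. Pdia4 lay between -2.14 and -1.99 in saline mice and between -2.69 and -2.48 in PD mice, a mean difference of -0.55. The difference was -0.83 for Eif2ak3, -0.65 for Atf6, -0.49 for Ddit3, -0.47 for Atf4 and -0.20 for Hsp90b1, without overlap. Ern1 was higher relative to Hspa5, by 0.58, also without overlap. Thus 6 of the other 9 genes were lower relative to Hspa5 and 1 was higher, where 55.0% of all other tested genes were lower and 17.7% higher.

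**Figure D3:**
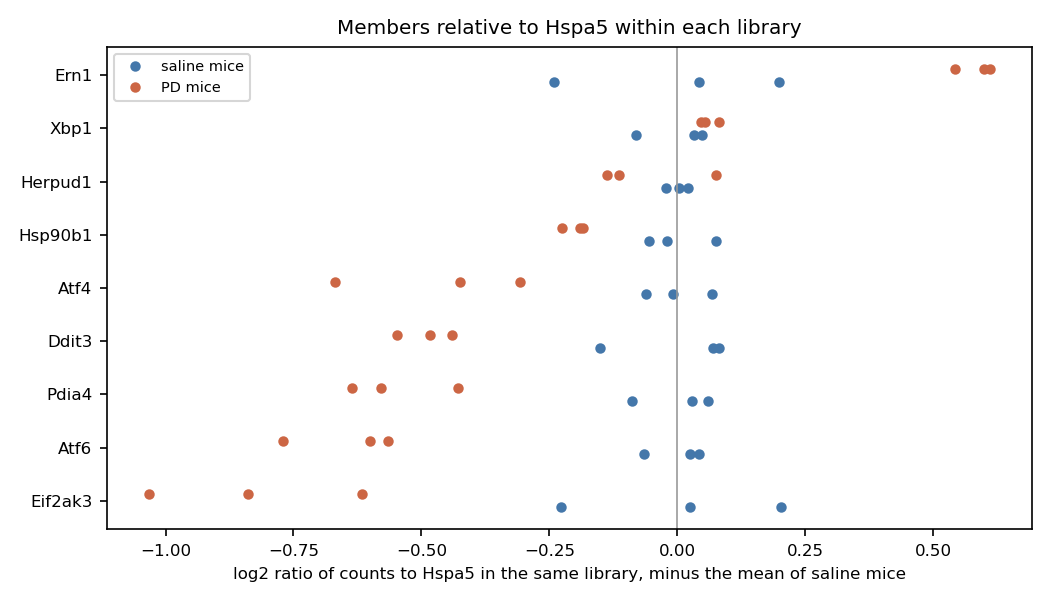
Log2 ratio of each gene's counts to those of Hspa5 in the same library, minus the mean of the saline mice (x axis), for the other 9 UPR genes (y axis), with 1 point per mouse. Ern1 lies to the right in PD mice (mean 0.58), Xbp1 and Herpud1 overlap with the saline mice, and the other 6 lie to the left, down to -0.83 for Eif2ak3.

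Directions changed with the reference used to scale the libraries. Of the 12 endothelial markers 11 were called higher in PD mice with TMM, while Pecam1 was at a log2 fold change of 0.13. The 5 UPR genes called higher with TMM lay above that value (0.25 to 1.03), and scaling to Pecam1 alone was not tested. Scaled to the geometric mean of the 12, in which each marker weighs alike, all genes had a median log2 fold change of -0.96. Of all genes 8.24% were called higher and 72.2% lower. By edgeR 0 of the 10 UPR genes were then higher (0 also at an unadjusted p under 0.05) and 9 were lower. The 5 genes called higher with TMM lay above that median of all genes: the log2 fold change was -0.53 for Hspa5, -0.46 for Xbp1, -0.58 for Herpud1, -0.73 for Hsp90b1 and 0.06 for Ern1, the gene not called (edgeR adjusted p = 0.766). Scaled to 5 leukocyte markers, a choice made after seeing the data, the median of all genes was 0.39, with 54.5% called higher and 5.61% lower. Then 8 UPR genes were higher and 0 lower in edgeR (0 at an unadjusted p under 0.05), and Eif2ak3 and Atf6 were not called, at -0.01 and 0.18. A scaling shifts all genes nearly alike, so the order of the 10 genes by fold change, from Ern1, Xbp1 and Hspa5 down to Eif2ak3, was the same with each of these scalings.

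**Figure D4:**
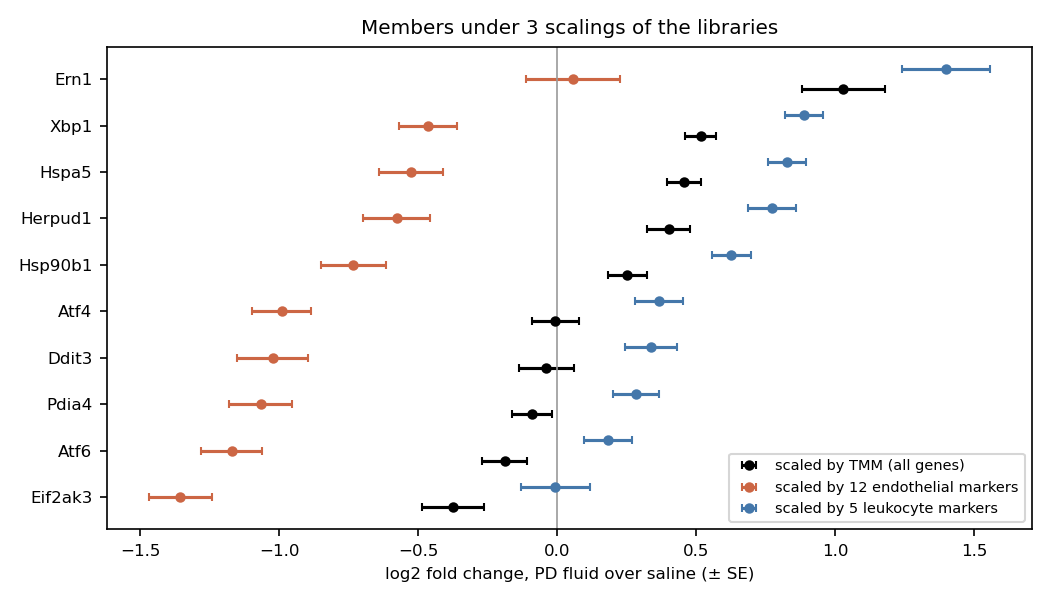
Log2 fold change of PD over saline mice with its standard error (x axis) for the 10 UPR genes (y axis), with libraries scaled by TMM, to 12 endothelial markers or to 5 leukocyte markers. The order of the genes is kept while the values shift, so that Hspa5 is at 0.46, -0.53 and 0.83.

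Other genes of the pathway were followed in 8 lists by role, with 121 genes tested. With TMM scaling 46 (38.0%) were higher in PD mice and 23 (19.0%) lower, with a median log2 fold change of 0.09. Over all tested genes the shares were 31.1% and 27.8% and the median 0.02. The counts were 7 higher and 101 lower under the endothelial scaling and 87 higher and 1 lower under the leukocyte scaling. Of all tested genes 8.24% were higher and 72.2% lower under the endothelial scaling, and 54.5% and 5.61% under the leukocyte scaling. The directions named below are those with TMM scaling, and of the genes named by abundance or size of change as higher only Nupr1, Cebpb, Atf3, Kdelr3, Casp12 and Creb3l3 had a positive log2 fold change under the endothelial scaling as well, while all were positive under the leukocyte scaling. Of the 12 genes named in the same way as lower, all were negative under the endothelial scaling, but under the leukocyte scaling Creb3 (0.14), Traf2 (0.15), Eif2s1 (0.06) and Spcs1 (0.18) turned positive and Rtcb was at 0.00.

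Targets of ATF4 and CHOP had the highest median of the 8 lists, 1.16, and 14 of 20 (70%) were higher, against 31.1% of all tested genes. By edgeR 0 were lower (0 at an unadjusted p under 0.05, 0 by DESeq2 and 0 by limma-voom). The counts were 7 higher and 9 lower under the endothelial scaling and 17 higher and 0 lower under the leukocyte scaling. All tested genes gave 8.24% and 72.2% under the former and 54.5% and 5.61% under the latter. Atf4 and Ddit3 themselves did not pass the test in the same mice. Nupr1, a small stress-induced chromatin protein, was at 10.7, 14.0 and 10.6 CPM in the saline mice and at 96.0, 102 and 113 CPM in the PD mice. The groups were far apart, and the log2 fold change was 3.14 ± 0.12 (SE) and edgeR gave an adjusted p of 3.98e-09. Cebpb, a transcription factor of inflammation and a partner of CHOP, was at 51.2, 41.7 and 51.5 CPM in the saline mice and at 255, 242 and 229.5 CPM in the PD mice. Again the groups were far apart, 5.03-fold, with an adjusted p of 4.96e-09 from edgeR. Atf3, a repressor induced by many stimuli, was 2.35-fold higher and Slc3a2, the heavy chain of amino acid exchangers, 1.48-fold higher (adjusted p = 6.57e-08 and 1.52e-05 by edgeR). The part of macrophage and immediate early markers, which rose in the same mice, was not tested. Genes named after their values were seen show how the list divided. Asns (asparagine synthetase, 1.09), Sesn2 (1.24) and Trib3 (a pseudokinase that restrains CHOP and ATF4, 0.54) rose. The 6 that did not pass were Aars (-0.01), Gadd45a (-0.18), Mthfd2 (0.12), Psat1 (-0.11), Slc7a5 (0.28) and Chac1 (-0.10), which include enzymes of serine and folate metabolism.

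Among ER chaperones and their partners, 6 of 15 (40%) were higher and 0 lower in edgeR (1 lower at an unadjusted p under 0.05, 0 by DESeq2 and 0 by limma-voom), with a median of 0.15. Of all tested genes 31.1% were higher and 27.8% lower. The counts were 0 higher and 14 lower under the endothelial scaling and 15 higher and 0 lower under the leukocyte scaling. All tested genes gave 8.24% and 72.2% under the former and 54.5% and 5.61% under the latter. Calr, the lectin chaperone calreticulin, was at 349, 334 and 353 CPM in the saline mice and at 428, 424 and 416 CPM in the PD mice. The groups did not overlap, and the ratio was 1.22-fold (edgeR adjusted p = 0.00108). Fkbp11, a proline isomerase of secretory cells, had the largest rise of the list, 1.55-fold (edgeR adjusted p = 0.0155). Ppib, the cyclophilin of collagen folding, and Manf, a secreted stress protein, did not pass, at 0.05 and 0.15.

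For disulfide formation 5 of 12 genes (41.7%) were higher and 3 (25%) lower, where all tested genes gave 31.1% and 27.8%. The median of the list was 0.05. P4hb, a disulfide isomerase and subunit of collagen prolyl hydroxylase, was at 213, 218 and 210.4 CPM in the saline mice and at 282, 287 and 286 CPM in the PD mice. The groups did not overlap (1.33-fold, edgeR adjusted p = 9.13e-05). The isomerase gene Pdia5 had the largest rise (1.63-fold), and the oxidase gene Ero1b the largest fall, to 0.635-fold (edgeR adjusted p = 1.5e-05). The abundant Pdia3 (0.07) and Pdia6 (0.03) did not pass, and neither did Pdia4. In ER-associated degradation 5 of 19 genes (26.3%) were higher and 2 (10.5%) lower, with a median of 0.13. Derl3, a derlin of secretory cells, had the largest rise (1.48-fold, edgeR adjusted p = 0.00577), and Selenos, which binds the ATPase p97, the largest fall, to 0.738-fold (edgeR adjusted p = 0.000422). The p97 gene Vcp (-0.01) and the lectin gene Os9 (0.10) did not pass.

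Genes of entry into the ER and of transport to the Golgi were higher in 5 of 21 cases (23.8%) and lower in 8 (38.1%). The median was -0.10, and of all tested genes 31.1% were higher and 27.8% lower. Spcs2 and Spcs1, subunits of the signal peptidase, fell to 0.755-fold and 0.873-fold (edgeR adjusted p = 0.00189 and 0.049). Tram1, a membrane protein at the translocon, was at 466, 495 and 476 CPM in the saline mice and at 329, 369.9 and 393 CPM in the PD mice. The groups did not overlap (edgeR adjusted p = 0.000769). Ssr1, of the translocon-associated complex, had the largest fall, to 0.702-fold, and Kdelr3, a receptor that returns ER proteins from the Golgi, the largest rise, 2.54-fold from a low level.

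Of the genes around eIF2, 3 of 12 (25%) were higher and 4 (33.3%) lower, with a median of -0.08. Among all tested genes the shares were 31.1% and 27.8%. Ppp1r15a encodes GADD34, the stress-induced subunit of the eIF2 phosphatase. It was at 675, 647 and 691 CPM in the saline mice and at 747, 813 and 871 CPM in the PD mice. The groups did not overlap (1.21-fold, edgeR adjusted p = 0.00566). Its constitutive counterpart Ppp1r15b rose 1.48-fold and the adaptor gene Nck1 1.18-fold, while Eif2s1, the subunit that PERK phosphorylates, fell to 0.804-fold and Eif2b3, of its exchange factor, to 0.683-fold. Among partners of the sensors 4 of 12 (33.3%) were higher and 5 (41.7%) lower, with a median of 0.02. Rtcb, the ligase that joins the cut Xbp1 transcript, was at 253, 248 and 259 CPM in the saline mice and at 188, 197 and 202 CPM in the PD mice. It was lower in every PD mouse (edgeR adjusted p = 0.000302), in the mice in which Ern1 and Xbp1 were higher. Creb3 fell to 0.850-fold and Traf2, which links IRE1 to kinase signalling, to 0.860-fold, and Creb3l3, under 1 CPM in every mouse, had the largest rise. Of 10 genes of ER stress death and calcium, 4 (40%) were higher and 1 (10%) lower, with a median of 0.31. Casp12, a caspase of the ER, rose 2.12-fold (edgeR adjusted p = 2.46e-05) and Bcap31 fell to 0.766-fold (edgeR adjusted p = 0.00273). Bax (-0.07) and Tmbim6 (-0.08), an inhibitor of cell death in the ER membrane, did not pass.

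**Figure D5:**
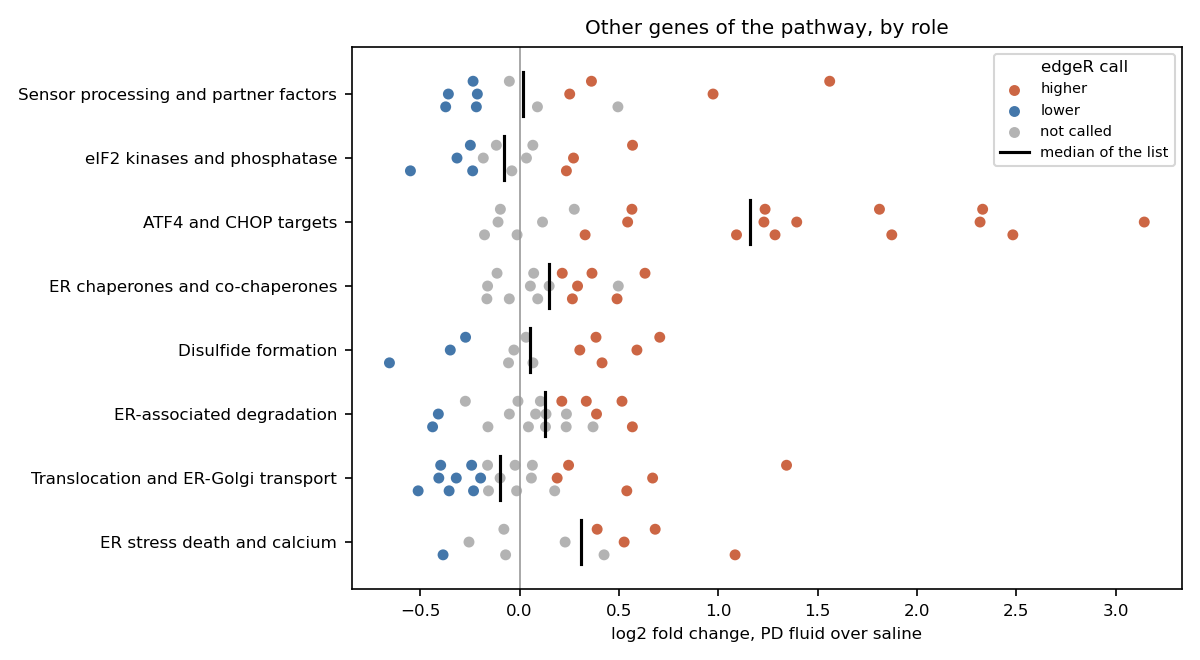
Log2 fold change of PD over saline mice (x axis, TMM scaling) for the tested genes of 8 lists (y axis), 1 point per gene, coloured by the edgeR call, with the median of each list marked. Targets of ATF4 and CHOP reach 3.14 with a median of 1.16, and genes of translocation and transport have a median of -0.10.

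The genes whose levels ran most like Hspa5 over the 6 libraries, by the root mean square distance of centred log2 CPM, were Rtn3 (0.0188), which encodes an ER membrane reticulon, Pdlim4 (0.0225), Mindy1 (0.0269), Scpep1 (0.0292) and Cyp27a1 (0.0321). None of the other 9 UPR genes was among them, but only 5 of 14005 tested genes are listed. Their absence therefore says little about how closely they followed Hspa5. The ratios of Xbp1 and Herpud1 to it overlapped between groups, that of Xbp1 narrowly.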

How the data were processed

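Poly(A)-selected RNA was sequenced on an Illumina NovaSeq. The authors deposited read counts per gene, without normalization and as whole numbers, which may be rounded estimates since the submitters' processing notes name RSEM. The notes also name fastp 0.18.0, Bowtie2 2.2.8, HISAT2 and StringTie 1.3.1, with no role given. The authors deposited FPKM values per mouse as well, used here to compare levels between genes. The table's group means, log2 ratio, p-value and FDR were not used. The genome build is not given in the sources used here, and coordinates are those of RefSeq promoters on GRCm38.p6, with exon overlaps from GENCODE.

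Counts were filtered with filterByExpr, scaled by TMM and tested for PD fluid against saline with edgeR 4.0.16 (quasi-likelihood, no covariate) in R 4.3.3, where the study's methods name limma. The standard error is the log2 fold change divided by the square root of the F statistic. The test was checked on simulated data. How it performs where as large a share of genes is called as here was not tested. Alternatives used DESeq2 1.42.0, limma-voom (limma 3.58.1), DESeq2 size factors, no filter, a replicate block, marker scalings, removal of 34 acinar genes, and each mouse left out. p-values measure the spread between these mice. Tables and figures used Python 3.11.15 and matplotlib 3.10.9.

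The members and lists were chosen with earlier results of these data known. The genes named are the 10 members, the 3 with the highest mean FPKM and the largest called rise and fall of each list, and the 5 nearest to Hspa5. Asns, Sesn2, Trib3 and the 6 uncalled ATF4 and CHOP targets were named after their values were seen, and marker genes only beside a result.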

Additional observations from a re-analysis of the deposited data

How the results depend on the processing

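With DESeq2, limma-voom, DESeq2 size factors, no filter on low counts and the replicate block, all 10 UPR genes kept their direction and their side of the threshold. The deviations of same-numbered mice from their group means had correlations of 0.10, 0.04 and -0.17. With 3 mice per group these values cannot show whether the numbers pair mice. The replicate block left 5 UPR genes higher and 1 lower. Scaled to endothelial markers, 0 UPR genes were higher and 9 lower, 7 other pathway genes higher and 101 lower, and 1154 of all genes higher and 10118 lower. The sign turned for Hspa5 (-0.53), Hsp90b1 (-0.73), Xbp1 (-0.46) and Herpud1 (-0.58). Scaled to leukocyte markers, chosen after seeing the data, 8 UPR genes were higher and 0 lower, 87 other pathway genes higher and 1 lower, and 7627 of all genes higher and 785 lower. The sign turned for Ddit3 (0.34), Atf4 (0.37), Atf6 (0.18) and Pdia4 (0.28). These shifts follow from the scaling itself, which moves all genes. With acinar genes left out Atf4 was at 0.0048. Over the fits that omit a single mouse, between 0 and 1 UPR genes were lower, between 14 and 25 other pathway genes were lower (15 without saline mouse 1 and 14 without PD mouse 1), and the log2 fold change ran from -0.12 to 0.027 for Ddit3 and from -0.0507 to 0.0829 for Atf4. With 3 mice per group small changes could fail the test. That of Atf6 (-0.188, SE 0.0812) was beyond 2 SE and was still not called.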
